A study of Mus musculus with 2 samples.

Results

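Voltage-gated sodium, calcium and potassium channels make neurons excitable, and their transcripts were described here in the hindbrain of the mouse embryo on day 12.5. The members were 42 genes chosen by name: 7 sodium channel subunits, 15 calcium channel subunits, 17 pore-forming potassium channel subunits and 3 HCN subunits. They are 42 of the 55536 genes in the deposited tables, and each symbol matched 1 gene identifier. Polyadenylated RNA was sequenced from 1 group, hindbrain of B6NCrl embryos aged 12.5 days with both sexes pooled, as 2 biological replicates. Pool 1 was made from 120 embryos and pool 2 from 88, and 10 ng of RNA entered each library. All embryos were healthy and carried no stated allele or treatment, so the data hold no contrast between conditions. The comparisons made here set subunits against each other, pool against pool, and the GENCODE M21 annotation against the older M4 annotation of the same libraries.

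In these channels alpha subunits form the pore and sense voltage. Sodium channel alpha subunits carry the rising phase of the action potential, and single-pass beta subunits tune their gating and placement. Calcium channel alpha1 subunits turn depolarisation into calcium entry, cytoplasmic beta subunits and extracellular alpha2delta subunits help them reach the membrane, and potassium channels set the resting potential and end the spike. HCN subunits form cation channels that open on hyperpolarisation and were kept as a class of their own. On this day of development young neurons of the brainstem settle around a layer of progenitors that still divide.

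Levels are in TPM, an abundance scaled by transcript length and library total, so that genes can be set side by side. Genes received 31469575 expected counts in pool 1 and 29261472 in pool 2, and members had between 21 and 3912 counts as a mean of the pools. The neuron markers summed to 2812 and 2963 TPM in pools 1 and 2, and the radial glia and progenitor markers to 2700 and 2481 TPM. All 10 neuron markers and all 8 progenitor markers reached 1 TPM in both pools. Of genes that mark the labelled tissue, Hoxb2 stood at 45.1 and 56.7 TPM and Hoxa2 at 40.4 and 53.8 TPM. Summed levels of 9 skeletal muscle markers were 46.6 TPM in pool 1 and 213.4 TPM in pool 2, a ratio of 4.58, and 8 of the 9 reached 1 TPM in both. Mesenchyme markers summed to 978.5 and 1295 TPM, endothelial and pericyte markers to 115.4 and 123.8 TPM, cranial ganglion markers to 147.5 and 166.6 TPM, erythroid markers to 14820 and 11820 TPM, and microglial markers to 62.6 and 65.6 TPM. These are bulk pools, in which fewer cells of a type and less RNA per cell cannot be told apart.

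Channel transcripts were mostly present, and mostly at low levels. Of the 42 members, 35 (83.3%) reached 1 TPM in both pools, beside 61.8% of the 22028 protein-coding genes. The median was 3.82 TPM over all 42 members and 5.37 TPM over the 35. The 13619 protein-coding genes at 1 TPM or more in both pools had a median of 21.8 TPM. Summed over members, the level was 430.4 TPM in pool 1 and 434.7 TPM in pool 2, and 11 members stood at 10 TPM or more in both. Accessory subunits held the top of the order: Cacnb3 and Scn3b came first and second, and the calcium channel beta class alone summed to 125.5 and 126.7 TPM. The 17 potassium channel alpha subunits together summed to 62.6 and 60.4 TPM, beside 61.3 and 62.4 TPM for the 4 sodium channel alpha subunits. Both sums cover chosen members only and include models without a complete coding sequence.

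**Figure D1:**
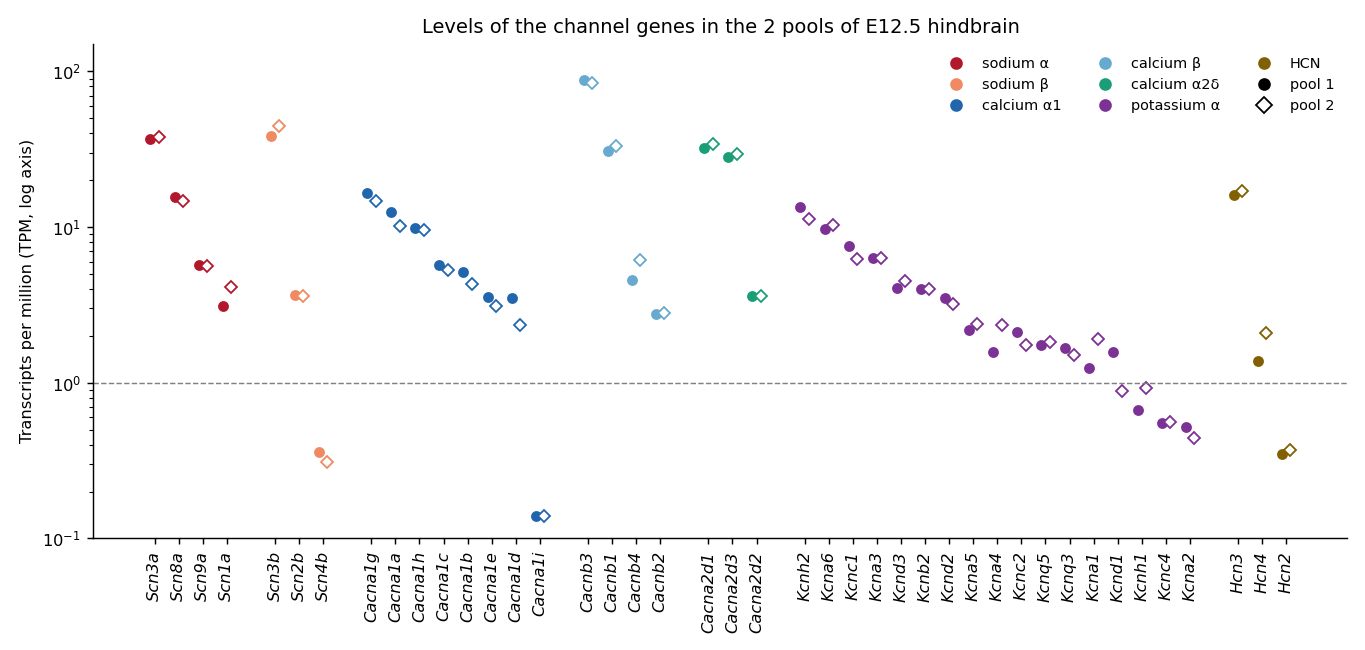
Levels of the 42 channel genes by class, in TPM on a log axis, with pool 1 as filled circles and pool 2 as open diamonds. The dashed line marks 1 TPM, which 35 members reached in both pools, and Cacnb3 is the highest at 87.5 and 84.4 TPM.

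Among sodium channel alpha subunits, all 4 members reached 1 TPM and their order was the same in both pools. Scn3a, which encodes Nav1.3, the channel known as the embryonic brain form, led with 36.9 TPM in pool 1 and 37.9 TPM in pool 2 (mean 37.4 ± 0.70, SD, n = 2). It took 60.2% and 60.7% of the summed TPM of the 4 alpha members. Scn8a, encoding Nav1.6, the channel of mature nodes and initial segments, followed with 15.6 and 14.8 TPM. Scn9a, encoding Nav1.7, best known from sensory and sympathetic neurons, had 5.69 and 5.64 TPM, and Scn1a, encoding Nav1.1 of fast-spiking interneurons, had 3.10 and 4.11 TPM. No pool value of any of these genes overlapped that of its neighbour in the order. Scn1a, Scn3a and Scn9a lie on chromosome 2, with Scn3a at chr2:65457118-65567627 and Scn1a at chr2:66270778-66440840.

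Part of the level of Scn3a sat on a short model. Scn3a-203, of 365 bases with an incomplete coding sequence, was listed at 14.5 and 13.6 TPM, yet it received 77.3 and 66.5 expected counts of the 3860 and 3895 on the gene. Its deposited interval ran from 10.8 to 17.7 TPM in pool 1 and from 9.94 to 16.8 TPM in pool 2. TPM divides counts by transcript length, so a short model with few counts can hold a large share, while counts weigh long models more. In Scn9a the leading model was a long one in both pools: Scn9a-202, a complete coding transcript of 9840 bases, was listed at 3.19 and 3.39 TPM. The retained-intron model Scn9a-204 followed with 1.66 and 1.71 TPM.

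Other sodium channel transcripts were also split over short models. The Scn8a model with the largest share, Scn8a-207 of 587 bases, held 38.3% and 39.9% of the gene's TPM with 58.4 and 52.9 counts. It is annotated with a complete coding sequence, though far too short for a whole alpha subunit. The full-length Scn8a-204, of 11436 bases, held 17.3% and 16.5% of TPM with 610.7 and 509.9 counts. For Scn1a, complete coding transcripts held 31.8% and 28.4% of TPM, or 0.99 and 1.17 TPM, and the incomplete model Scn1a-206 held 39.2% and 53.6%. Counting only complete coding transcripts left the order of the alpha members as it was, with Scn3a at 21.8 and 23.9 TPM. The second place of Scn8a, at 9.40 and 9.11 TPM, then rested on the short Scn8a-207, with 5.99 and 5.89 TPM. Scn8a-204 alone held 2.70 and 2.44 TPM, below the 3.93 TPM on complete coding transcripts of Scn9a in each pool.

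Sodium channel beta subunits ranged more widely than the alpha subunits. Scn3b was the second highest member of all, with 38.6 TPM in pool 1 and 44.7 TPM in pool 2 (mean 41.7 ± 4.30, SD, n = 2). Scn2b had 3.65 and 3.62 TPM, and Scn4b, the subunit linked to resurgent current in mature neurons, had 0.36 and 0.31 TPM from 35 and 28 counts. Scn3b thus stood well above the other two beta members in both pools. On TMM-scaled counts its log2 ratio of pool 2 to pool 1 was 0.29, but with spike-in totals Scn3b was not among the members higher in pool 2. Anchors of the axon initial segment and intracellular FGFs, which place and tune sodium channels, were present alongside, with 8 of 9 at 1 TPM or more. The 3 highest of that list were Nrcam at 75.1 and 84.2 TPM, Ank3 (ankyrin G) at 70.5 and 84.3 TPM, and Fgf13 at 60.1 and 71.0 TPM. The place of Nrcam depended on the annotation: with M4 its mean was 38.2 TPM, below Nfasc at 40.8 TPM.

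Calcium channel alpha1 subunits covered all functional types, and 7 of 8 members reached 1 TPM. The low-voltage-activated T-type gene Cacna1g was highest, with 16.6 and 14.6 TPM, and the T-type gene Cacna1h had 9.81 and 9.63 TPM. The P/Q-type gene Cacna1a, known to carry transmitter release at many synapses, had 12.4 and 10.2 TPM. Below these came the L-type gene Cacna1c with 5.67 and 5.27 TPM, the N-type gene Cacna1b with 5.12 and 4.31 TPM, and the R-type gene Cacna1e with 3.58 and 3.11 TPM. The L-type gene Cacna1d, at 3.50 and 2.36 TPM, overlapped Cacna1e. As a group the 3 T-type members held 46.7% and 49.2% of the summed alpha1 TPM, the P/Q-, N- and R-type members 37.2% and 35.5%, and the L-type members 16.1% and 15.4%.

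Cacna1i, the remaining T-type gene, was the lowest member of all. Both pools listed it at 0.14 TPM, from 28 and 25 counts. Its deposited intervals ran from 0.27 to 1.71 TPM and from 0.26 to 1.81 TPM, and thus did not hold the deposited value. Only 1 other member, Cacna1b, had a gene-level value outside its own interval, in pool 2 (4.31 TPM against a lower bound of 4.50). The sources used here do not state the level of these intervals.

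Much of the alpha1 level in TPM lay on transcripts not annotated with a complete coding sequence. Of the TPM of Cacna1a, 14.8% and 24.2% was on complete coding transcripts, and the retained-intron models Cacna1a-206 and Cacna1a-207 held 20.0% and 16.8% and 18.9% and 20.9%. By complete coding transcripts alone, Cacna1a stood at 1.84 and 2.47 TPM, below Cacna1b at 4.29 and 4.03 TPM, which reverses their order. For Cacna1d the complete coding share was 6.55% and 26.3%, and for Cacna1e it was 47.6% and 45.0%. Cacna1g and Cacna1h were still the highest alpha1 genes on this basis, at 7.67 and 8.15 TPM and at 6.76 and 6.73 TPM. The Cacna1h level was all on Cacna1h-205, listed above its own deposited intervals of 4.61 to 6.53 and 4.16 to 6.31 TPM. Cacna1g-208 in pool 2 was also listed above its interval, at 6.72 TPM against an upper bound of 5.97 TPM. The T-type share of the complete coding alpha1 level was 56.5% and 56.0%. By expected counts the complete coding share was larger: 52.8% and 72.1% for Cacna1a, 17.9% and 49.8% for Cacna1d, and 83.5% and 79.6% for Cacna1e. For Cacna1g it was 92.4% and 94.6%, and for Cacna1h 95.6% and 94.5%.

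The L-type genes carry a pair of exons of 104 bases of which each coding transcript holds 1, and which encode the pore-lining helix at the end of the first repeat. The Cacna1c pair is shown because transcripts with either copy were present in both pools. Each copy is given 5′ to 3′ on the coding strand, cut from the GENCODE M21 transcripts (mm10), with capitals where the copies differ. The pair lies on the minus strand at chr6:118742265-118742368 (upstream) and chr6:118741871-118741974 (downstream), and 32 bases differ.
Cacna1c upstream exon: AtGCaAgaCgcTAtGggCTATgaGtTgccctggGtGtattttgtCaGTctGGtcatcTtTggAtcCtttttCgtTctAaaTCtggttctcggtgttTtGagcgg
Cacna1c downstream exon: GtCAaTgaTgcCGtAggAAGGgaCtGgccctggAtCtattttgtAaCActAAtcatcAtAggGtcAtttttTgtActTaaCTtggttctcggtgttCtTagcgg

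Transcripts of Cacna1c with the upstream copy held 0.94 and 1.16 TPM, and those with the downstream copy held 2.20 and 2.12 TPM. The upstream share was therefore 29.9% and 35.4% of TPM and 43.6% and 49.9% of expected counts. Whole transcripts that hold the upstream copy had 245.6 and 278.7 expected counts, all on Cacna1c-207 of 13162 bases. Those that hold the downstream copy had 318.0 and 280.3, mostly on Cacna1c-216 of 7338 bases. No deposited value counts reads over an exon itself, and these models also differ at other exons, so the split cannot be tied to the pair. In Cacna1d the same kind of pair gave no stable value: transcripts with the downstream copy held all 39.1 expected counts of the pair in pool 1, and transcripts with the upstream copy all 90.8 in pool 2. With annotation M4 the Cacna1d upstream share was 60.3% and 36.1%, so the split differed with the models offered as well as between the pools.

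The N- and R-type genes carry a pair of exons of 97 bases in the C-terminal tail, but the models offered decide much of its split. The upstream exon, in Cacna1b a form known from nociceptive sensory neurons, is annotated only in short incomplete models, Cacna1b-210 of 332 bases and Cacna1e-208 of 331 bases. A full-length transcript with that exon has no model to receive its reads, so no exon use was read from these pairs. Cacna1b-210 was listed at 0.25 and 0 TPM, with a deposited interval up to 1.14 TPM in pool 1. Cacna1e-208 was listed at 0 TPM in both pools, with intervals up to 0.62 and 0.68 TPM. In the T-type gene Cacna1g, 4 single cassette exons had a share of the coding level. Transcripts with the 54-base exon at chr11:94423671-94423724 held 94.1% and 89.6% of the coding TPM that spans it. Those with the 69-base exon at chr11:94439709-94439777 held 7.43% and 10.1%. Those with the 135-base exon at chr11:94413090-94413224 and the 144-base exon at chr11:94414931-94415074 held 6.39% and 1.72%, further apart between the pools. The coding transcript Cacna1g-205 was listed at 2.63 TPM in pool 1 and 0 in pool 2, so transcript assignment in this gene was not stable. Among the calcium channel genes, 4 pairs of exons of 21 bases or more met the rule that every spanning coding transcript holds 1. Cacna1b, Cacna1c, Cacna1d and Cacna1e each had 1. The rule is strict: neighbouring Cacna1c exons of 84 bases each, and others of 60 bases each, failed it because some coding models hold both or neither.

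**Figure D2:**
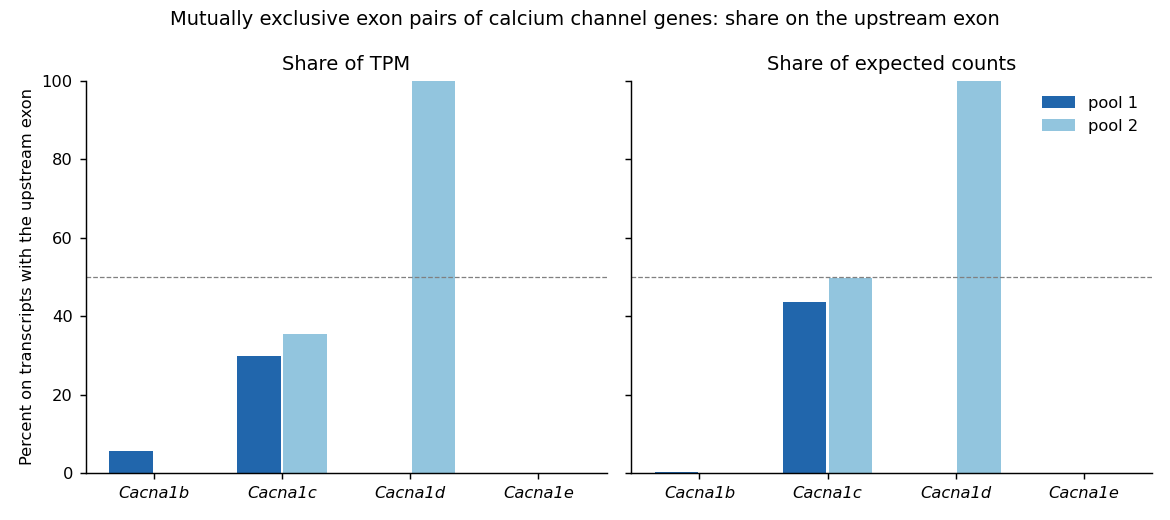
Share carried by transcripts with the upstream exon of each mutually exclusive pair of calcium channel genes, in percent of TPM (left) and of expected counts (right), for pools 1 and 2. Cacna1c has 29.9% and 35.4% of TPM on the upstream exon, Cacna1b and Cacna1e, whose upstream exon is annotated only in short models, have little or none, and Cacna1d differs between the pools on both scales.

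Calcium channel beta subunits had the largest summed TPM of any class, and all 4 were at 1 TPM or more. By class median the alpha2delta subunits were higher, at 28.8 against 18.7 TPM. Cacnb3 led all 42 members with 87.5 TPM in pool 1 and 84.4 TPM in pool 2 (mean 85.9 ± 2.25, SD, n = 2), above 85.6% of the protein-coding genes that reached 1 TPM. It lies at chr15:98630840-98644529. Cacnb1 followed with 30.7 and 33.4 TPM, and Cacnb4, the subunit affected in the lethargic mouse, had 4.57 and 6.17 TPM. Cacnb3 held 69.8% and 66.6% of the summed beta TPM. Cacnb2 was listed at 2.75 and 2.79 TPM, but 90.9% and 78.2% of that was on retained-intron models, and its complete coding transcripts reached 0.10 and 0.45 TPM.

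Cacnb1 was mostly of the form with a short central exon. Transcripts with the 20-base exon at chr11:98010627-98010646 held 25.8 and 28.0 TPM, and those with the 155-base exon at chr11:98011343-98011497 held 1.62 and 2.05 TPM. The long exon is the one known from the skeletal muscle form of the subunit. Its share of the coding level was 5.92% and 6.82%, while the summed muscle markers were 46.6 and 213.4 TPM in the same pools. The part of muscle RNA in the long form was not tested.

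Of the alpha2delta subunits, the surface proteins that carry channels to the membrane, a pair was abundant. Cacna2d1 had 32.0 and 34.3 TPM, and Cacna2d3 had 28.2 and 29.5 TPM, with no overlap between the genes. Cacna2d2 stood at 3.59 and 3.60 TPM. Cacna2d1 transcripts with a 21-base exon at chr5:16341990-16342010 held 8.86 and 7.58 TPM against 14.2 and 16.1 TPM without it. They thus held 38.5% and 32.0% of the coding TPM that spans the exon. These models, Cacna2d1-203 and Cacna2d1-206, are of 3879 and 3882 bases. Cacna2d1-202 and Cacna2d1-205, without the exon, are of 7311 and 7436 bases, so by expected counts the share with the exon was smaller. In Cacna2d2, transcripts with a 21-base exon at chr9:107519179-107519199 held 25.5% and 22.6% of such TPM. No deposited value counts reads over these exons, so their use was not measured.

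Potassium channel alpha subunits were the largest class and a low one, with 13 of 17 members at 1 TPM in both pools and a median of 1.97 TPM. Kcnh2, the ERG channel also known from the heart, was highest with 13.5 and 11.2 TPM (mean 12.4 ± 1.64, SD, n = 2). The related EAG gene Kcnh1 stood at 0.67 and 0.92 TPM. Of the M-current genes, Kcnq5 had 1.76 and 1.82 TPM and Kcnq3 had 1.67 and 1.51 TPM, with overlapping intervals. Transcripts of Kcnq5 with a 57-base exon at chr1:21461551-21461607 held 28.5% and 23.4% of its coding TPM. The delayed rectifier Kcnb2 had 4.01 and 3.99 TPM, with 82.8% and 84.7% on its shorter coding transcript Kcnb2-202 of 3963 bases.

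In the Shaker family (Kcna), which holds low-threshold axonal channels, Kcna6 and Kcna3 led. Kcna6 had 9.71 and 10.3 TPM and Kcna3 had 6.30 and 6.36 TPM. Kcna5 followed with 2.19 and 2.38 TPM, Kcna4 with 1.58 and 2.35 TPM and Kcna1 with 1.25 and 1.90 TPM. Kcna2, a main subunit of myelinated axons later on, was listed at 0.52 and 0.44 TPM. Kcna6 transcripts could not be assigned stably. The nonsense-mediated decay model Kcna6-201 took 78.4% of TPM in pool 1 and 25.8% in pool 2, and the complete coding share was 0.103% and 44.3%. The deposited interval of Kcna6-201 in pool 1 ran from 0.031 to 6.81 TPM and did not hold its listed 7.61 TPM. The antisense model Gm26673 covers 39.6% of the Kcna6 exon bases and was listed at 0 counts in both pools.

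In the Shaw family (Kcnc), whose members allow fast spiking, Kcnc1 had 7.61 and 6.28 TPM, Kcnc2 had 2.11 and 1.74 TPM and Kcnc4 had 0.55 and 0.56 TPM. A non-coding model of 531 bases, Kcnc1-202, held 64.4% and 46.9% of the Kcnc1 TPM with 42.3 and 23.5 counts. Complete coding transcripts of Kcnc1 held 2.71 and 3.34 TPM, higher in pool 2, where the gene level was lower. In the Shal family (Kcnd), which gives the A-type current of dendrites, Kcnd3 had 4.08 and 4.50 TPM and Kcnd2 had 3.50 and 3.19 TPM. Transcripts of Kcnd3 with a 57-base exon at chr3:105666962-105667018 held 0.52 and 1.04 TPM against 2.74 and 2.67 TPM without it.

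Kcnd1 was the 1 member on either side of 1 TPM, with 1.57 TPM in pool 1 and 0.88 TPM in pool 2. Its counts were 88 and 81, a scaled log2 ratio of -0.01. The short non-coding model Kcnd1-202 took 52.9% of TPM in pool 1 and 4.55% in pool 2, from 10.8 and 0.43 counts. The complete coding level of Kcnd1 was 0.74 and 0.84 TPM, under 1 TPM in both.

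Partners and relatives of potassium channels were taken from chosen lists, which need not cover whole families, and 61.8% of protein-coding genes reached 1 TPM in both pools. All 9 cytoplasmic and membrane partners reached 1 TPM, led by Kcnip1 at 24.3 and 24.7 TPM, Dpp6 at 21.1 and 20.7 TPM and Kcnab2 at 14.9 and 13.4 TPM. Kcnip and Dpp proteins join Shal channels, and Kcnab proteins join Shaker channels. All 6 of the listed calcium-activated channel genes reached 1 TPM, led by Kcnn1 at 17.1 and 18.2 TPM, Kcnmb4 at 15.8 and 15.2 TPM and Kcnmb2 at 5.97 and 5.92 TPM. With annotation M4 the mean of Kcnn1 was 8.9 TPM, below Kcnmb4 at 16.4 TPM. All 5 of the listed two-pore-domain leak channel genes reached 1 TPM, led by Kcnk10 at 27.2 and 24.7 TPM, Kcnk1 at 11.0 and 9.74 TPM and Kcnk2 at 8.80 and 8.52 TPM. In the Kcne list 3 of 4 did, led by Kcne2 at 13.7 and 19.7 TPM, Kcne3 at 3.61 and 2.45 TPM and Kcne4 at 1.33 and 1.70 TPM. Of the modulatory subunits, which form no channel alone, 1 of 10 did: Kcng2 had 1.14 and 1.00 TPM, beside Kcnv1 at 0.94 and 1.22 TPM and Kcnf1 at 0.98 and 0.95 TPM.

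HCN subunits were nearly all Hcn3. It had 16.0 TPM in pool 1 and 17.1 TPM in pool 2 (mean 16.6 ± 0.78, SD, n = 2), or 90.3% and 87.4% of the summed TPM of the 3 members. Hcn4, the pacemaker subunit of the heart, had 1.37 and 2.10 TPM, and Hcn2 had 0.35 and 0.37 TPM. Hcn2 rested on 21 counts in each pool, all on Hcn2-201 in pool 1 and all on Hcn2-202 in pool 2. Exons of Hcn3 share 17.1% of their bases with Pklr on the opposite strand, which was listed at 0.74 and 0.19 TPM. The sources used here do not say whether reads were counted by strand, so overlapping genes cannot be told apart. This applies to 12 members that shared exon bases with a gene on the opposite strand. The share of all genes with such an overlap is not given here.

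Between the pools, no member reached a 2-fold difference. On TMM-scaled expected counts with a prior count of 0.5, 0 of 42 members differed 2-fold or more, beside 4.03% of the 19388 genes with 10 or more mean counts, a share near that of the members. The pools are replicates of 1 group, so these ratios have no test. The median size of the log2 ratio was 0.103 for members and 0.126 for those genes, but 0.0926 for protein-coding genes at 1 TPM or more, and 34 members were under 0.25. Log2 ratios ran from -0.26 for Kcna2 to 0.60 for Hcn4. All 3 members at 0.5 or more were higher in pool 2: Hcn4 with 165 and 233 counts, Kcna1 with 90 and 124, and Kcna4 with 148 and 203. Their counting errors were 0.15, 0.20 and 0.16 on the log2 scale. Summed muscle markers were higher in pool 2 by 4.58-fold, and mesenchyme markers by 1.32-fold; their part in these ratios was not tested.

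Direction depended on the scaling. With TMM, 24 members were higher in pool 2 and 18 in pool 1. With spike-in totals 4 were higher in pool 2 and 38 in pool 1, and the median log2 ratio of all genes with 10 or more mean counts was then -0.37, beside -0.35 for the members. The 4 were Kcna1, Kcna4, Kcnh1 and Hcn4.

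**Figure D3:**
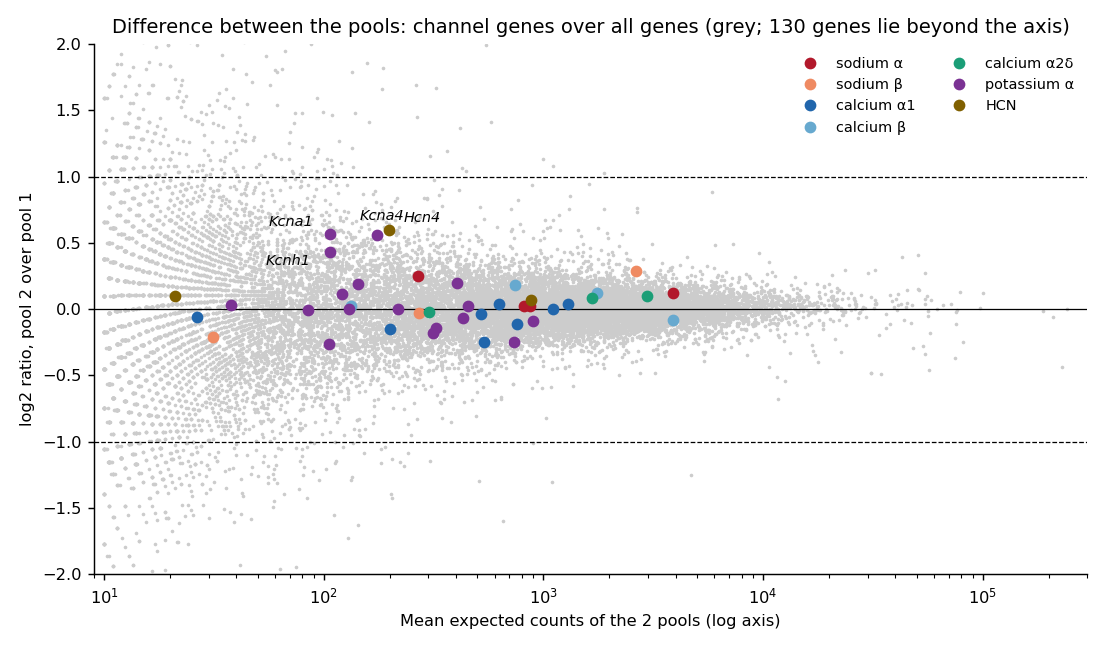
Log2 ratio of pool 2 to pool 1 on TMM-scaled counts against mean expected counts (log axis), with the channel genes in colour over all genes with 10 or more mean counts in grey. All 42 members lie between the dashed 2-fold lines, and the highest is Hcn4 at 0.60.

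Isoform shares depended on the scale. In 14 of the 35 members at 1 TPM or more (40.0%), the top isoform held under 60% of the gene's TPM in both pools, beside 33.1% of protein-coding genes at that level. By shares of expected counts the number was 6. Members had a median of 7 annotated transcripts and those genes 5, and the top isoform was another one in pool 2 than in pool 1 for 4 of the 35: Cacna1a, Cacna1d, Cacnb4 and Kcna6. The same held for Kcnd1 and Hcn2, which were not at 1 TPM in both pools. For Cacnb4 both were complete coding transcripts: Cacnb4-203 held 66.3% and 34.9% and Cacnb4-202 held 28.2% and 43.0% in pools 1 and 2. In 29 of the 35 the top isoform was a complete coding transcript in both pools. Shares over all protein-coding genes are not given here for the counts of 6, 4 and 29, so these counts describe the members only.

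Complete coding transcripts held a median of 74.8% and 80.8% of a member's TPM, and 93.0% and 94.6% of its expected counts. Over protein-coding genes at 1 TPM or more the medians were 86.2% and 86.9% of TPM and 94.7% and 94.9% of counts. Less than 50% of TPM was on complete coding transcripts in both pools for 6 of the 35 members, namely Scn1a, Cacna1a, Cacna1d, Cacna1e, Cacnb2 and Kcna6, beside 14.1% of those genes. Cacnb2 and Cacna1d were the 2 members at 1 TPM or more whose complete coding level was under 1 TPM in both pools. Restricted to complete coding transcripts, 31 members were at 1 TPM or more and the median was 2.82 TPM.

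**Figure D4:**
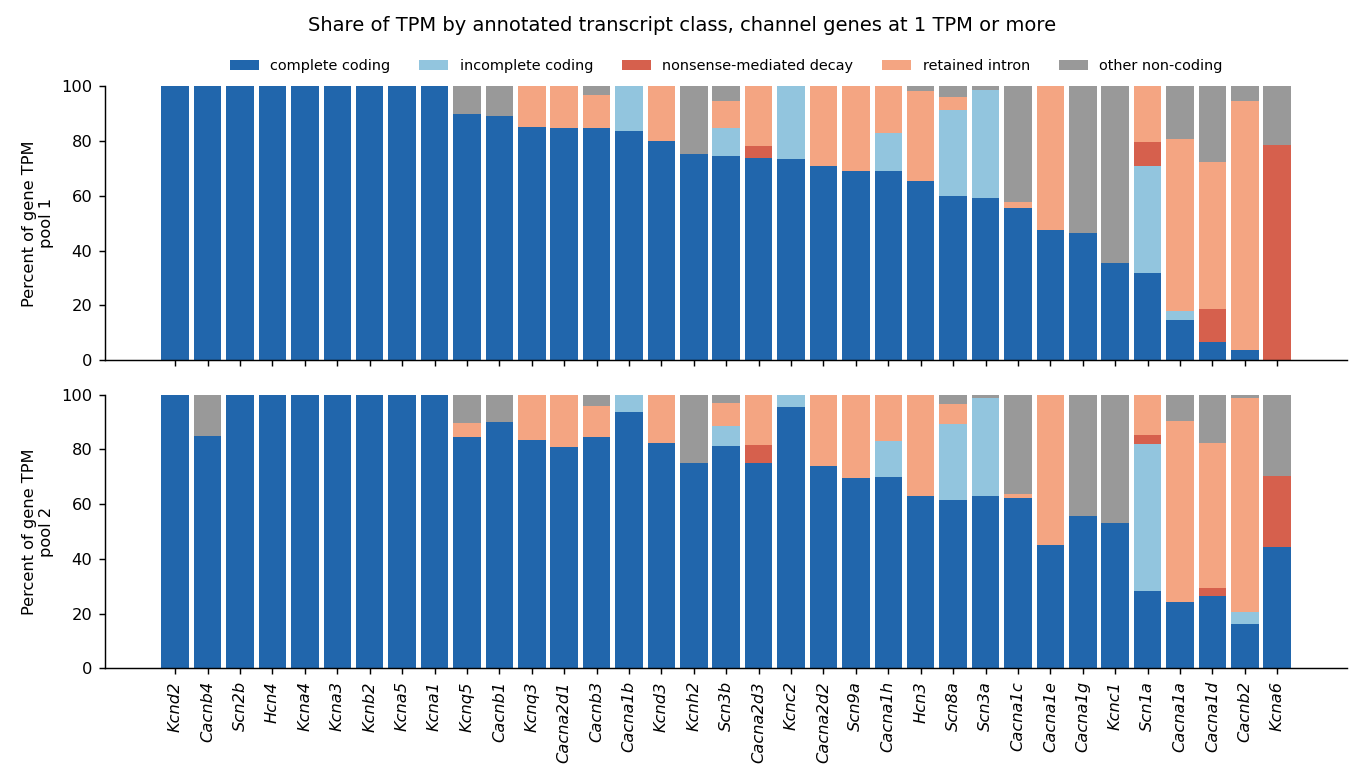
Share of each gene's TPM by annotated transcript class, in percent, for the 35 channel genes at 1 TPM or more, with pool 1 above and pool 2 below. Genes are ordered by the complete coding share in pool 1, which ends with Cacna1d at 6.55%, Cacnb2 at 3.62% and Kcna6 at 0.103%.

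Changing the annotation moved a few members strongly. With M21 against M4, 3 of 42 members differed 2-fold or more in mean TPM, beside 2.78% of the 15087 protein-coding genes with 10 or more mean counts. Kcna2 moved most: M4 gave 0.09 and 0.12 TPM from 6 and 7 counts, and M21 gave 4.57 times as much from 119 and 92 counts. Its longest transcript was 3456 bases in M4 and 11582 bases in M21. Cacna1d was 2.62-fold higher with M21, with 12 transcripts in place of 2 and counts of 218.0 and 182.4 in place of 193.6 and 164.7. Scn8a was 2.05-fold higher, with 20 transcripts in place of 5 and 898 and 846 counts in place of 730 and 695. Models added for Scn8a and Cacna1d include the short Scn8a-207 and Scn8a-210 and the non-coding Cacna1d-205 and Cacna1d-206, which hold much of the M21 level.

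Below that limit, Kcna1 was 1.72-fold and Kcnc2 1.62-fold higher with M21, and Cacna2d1 and Cacna2d3 were 1.38-fold and 1.23-fold higher. Hcn4 went the other way, with 1.37 and 2.10 TPM in M21 against 1.72 and 2.89 TPM in M4, although its counts were higher in M21 (165 and 233 against 121 and 187). Its only transcript was 3798 bases in M4 and 6118 bases in M21. Of the 42 members 33 were lower with M21, and the median ratio for members at 1 TPM or more was 0.955, beside 0.952 for protein-coding genes at that level.

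**Figure D5:**
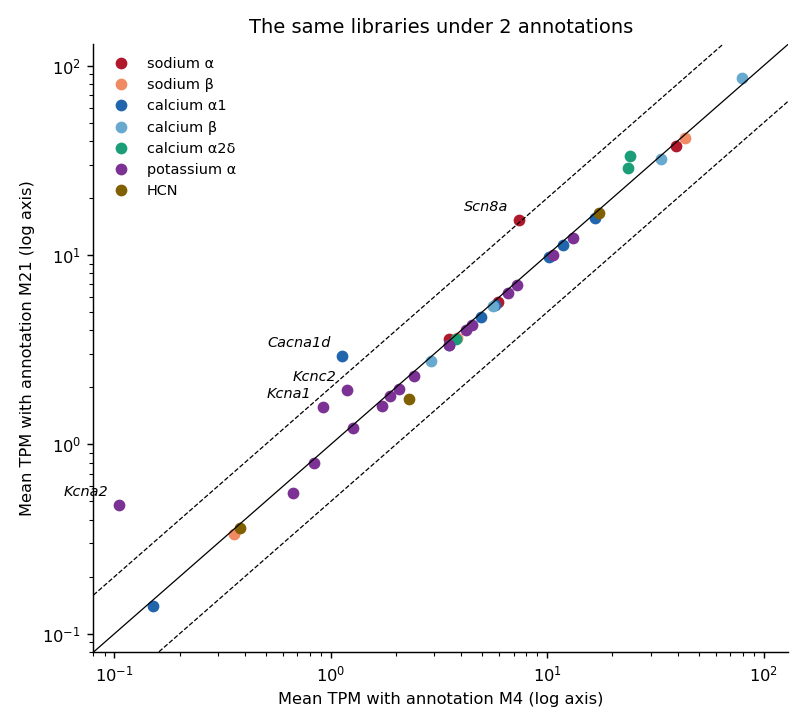
Mean TPM of the 42 channel genes with annotation M21 against annotation M4, both on log axes, with the line of equality and dashed 2-fold lines. Kcna2, Cacna1d and Scn8a lie above the upper dashed line, at 4.57, 2.62 and 2.05 times their M4 value.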

How the data were processed

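Gene and transcript levels were measured by polyA RNA-seq in 2 pools of hindbrain. Per the labels, total RNA (mirVana) was primed with oligo-dT and tagmented (Nextera) with ERCC spike-ins; a low-input amplification kit can affect recovery of long transcripts. The deposited expected counts are the authors' estimated reads per gene or transcript, unscaled and not always whole; they were rounded for edgeR. The deposited TPM values are scaled to effective length and to the total with spike-ins and tRNA entries included. Annotations were GENCODE M21 (main) and M4 (build mm10, per the read-me texts deposited with them); the counting program was not given in the sources used here. A member's TPM equalled the sum over its transcripts within 0.02.

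Library totals were 32547454 and 30559015 expected counts, with 3.31% and 4.25% on spike-ins. No molecular identifiers are mentioned, so counting errors (Poisson, on the log2 scale) cover counting only, and p-values were not computed. Members and lists were chosen with earlier results of these data known, and the tissue identity genes and the complete coding alternative were added after seeing the data. All 42 members are named, and the 3 highest of each partner list. Transcripts were classed by GENCODE M21 biotype and tags, with models lacking an annotated coding start or end called incomplete. Exon pairs were same-length, non-overlapping coding exons of at least 21 bases of which every spanning coding transcript holds 1; those of sodium channel genes and 1 tissue marker are not reported here. Ratios used TMM (edgeR 4.0.16, prior count 0.5, R 4.3.3), checked on simulated data; DESeq2 1.42.0 size factors were an alternative. Thresholds were 1 TPM, 2-fold, 10 mean counts and 60%.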

Additional observations from a re-analysis of the deposited data

How the results depend on the processing

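Alternatives concerned the TPM threshold, annotation, scaling, filters and single pools, and those on complete coding transcripts and on ratios of TPM were chosen after seeing the data. The count of 35 members at 1 TPM lay between 29 and 38 at thresholds of 2 and 0.5 TPM, was 34 with M4 and 31 on complete coding transcripts, and fell to 17 at 5 TPM. Without replicate 1 it was 35 and without replicate 2 it was 36. The median of 3.82 TPM became 4.01 with M4, 4.20 without spike-ins and tRNA entries in the total, 5.37 over members at 1 TPM or more, and 2.82 on complete coding transcripts; it was 4.05 without replicate 1 and 3.83 without replicate 2. No member was 2-fold apart between the pools under DESeq2 size factors, total counts, spike-in totals, a prior count of 2, the other count filters, M4 or ratios of TPM. Of the 3 members 2-fold apart between annotations, 2 remained among members at 1 TPM or more, and leaving out either replicate gave 3; complete coding transcripts against M4 genes gave 9. The 14 members whose top isoform held under 60% became 6 by expected counts, 9 at a limit of 50%, 23 at 70% and 11 with M4, and 16 to 19 in a single pool. No paired analysis was possible because the series holds 1 group. With 2 pools there is no test, and isoform shares also differed between the pools in genes with many counts, such as Kcna6 with 954 and 835. Short models weigh more in TPM than in counts.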
